A study of Homo sapiens with 24 samples.

Results

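The 32 genes described here are targets of the transcription factor ATF4 together with cytosolic aminoacyl-tRNA synthetases. They were taken by symbol from the 36468 entries of the count table, using the first entry of each symbol. No measured value entered that rule, but the members were chosen with earlier results of these data known. By role they are 6 regulators of the response (ATF4, DDIT3, CEBPB, TRIB3, CHAC1 and SESN2), 6 enzymes of amino acid and one-carbon synthesis (ASNS, PHGDH, PSAT1, PSPH, SHMT2 and MTHFD2), 3 amino acid transporter chains (SLC7A11, SLC7A5 and SLC3A2), 13 synthetases commonly listed as ATF4-linked (AARS1, CARS1, EPRS1, GARS1, IARS1, LARS1, MARS1, NARS1, SARS1, TARS1, VARS1, WARS1 and YARS1) and 4 other synthetases (HARS1, KARS1, QARS1 and RARS1). All 32 passed the filter of at least 10 counts in total over the libraries. The question was whether synthetases and the serine and amino acid genes moved together, as an ATF4 response would, after cytokine treatment.

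The cultures were sensory neurons differentiated through vagal neural crest from H9WA09, an established human embryonic stem cell line. In each of 6 differentiation batches, cultures received Vehicle (BSA in PBS), TGF-β at 2 ng/ml or IL-4 at 10 ng/ml with IL-13 at 3 ng/ml, each for 5 days, or IL-6 at a dose and for a time not given in the sources used here. The resulting 24 poly(A) libraries form 4 groups of 6, and each held between 33342682 and 39817784 counts. All libraries derive from 1 cell line, so the spread is between differentiations and not between donors. RNA came from whole cultures, in which marker genes of neurons, of fibroblasts and smooth muscle, and of dividing cells were all read. In such bulk samples, fewer cells of a type and less RNA per cell cannot be told apart.

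ATF4 is a transcription factor of the integrated stress response, in which kinases that sense amino acid shortage, misfolded protein, haem deficiency or viral RNA phosphorylate the initiation factor eIF2α. General translation then falls while translation of the ATF4 mRNA rises, so ATF4 activity is set largely by its protein, which these RNA counts do not measure. ATF4 binds, with C/EBP-family partners, to composite sites in genes that rebuild amino acid supply: enzymes that make serine, glycine and asparagine, transporters that import amino acids, and the synthetases that load amino acids onto tRNA. Neurons and glia depend on this route because serine also feeds one-carbon metabolism and membrane lipid synthesis.

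The promoters of several members carry letters of the composite C/EBP-ATF motif. The list names ATF4 targets and ATF4-linked synthetases, and ATF4 binds such sites. The shares below therefore describe the list and are no separate support for it. TGATGNAA was searched on both strands of windows from 250 bases before to 50 bases after each RefSeq transcription start (GRCh38.p14). Of all 35116 windows, 3.62% held it, and 4.46% of 27305 genes had it in at least 1 window. Among the 26 members with a window, 10 had a match (38.5%): 7 of 10 ATF4-linked synthetases, 0 of 4 other synthetases, 1 of 6 regulators, 1 of 4 synthesis enzymes and 1 of 2 transporter chains. Below, 11 bases on each side surround the match in capitals (5 after it in SLC3A2, where the window ends), read 5′ to 3′ on the strand of the gene. TTNCATCA is the motif on the opposite strand.
CHAC1 (chr15:40953251-40953280, plus strand): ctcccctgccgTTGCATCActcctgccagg
ASNS (chr7:97872458-97872487, minus strand): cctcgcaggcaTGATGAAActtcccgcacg
SLC3A2 (chr11:62881725-62881748, plus strand): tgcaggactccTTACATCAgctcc
AARS1 (chr16:70289675-70289704, minus strand): ttttctcgcagTTGCATCAgccaagttaga
CARS1 (chr11:3057407-3057436, minus strand): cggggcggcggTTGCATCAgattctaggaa
GARS1 (chr7:30594834-30594863, plus strand): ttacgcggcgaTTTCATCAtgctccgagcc
IARS1 (chr9:92293692-92293721, minus strand): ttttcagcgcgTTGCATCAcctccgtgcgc
MARS1 (chr12:57488053-57488082, plus strand): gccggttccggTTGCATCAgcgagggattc
NARS1 (chr18:57621804-57621833, minus strand): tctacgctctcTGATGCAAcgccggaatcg
TARS1 (chr5:33440956-33440985, plus strand): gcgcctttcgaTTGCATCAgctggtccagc
ASNS makes asparagine, CHAC1 degrades glutathione, SLC3A2 is the heavy chain that carries SLC7A5 and SLC7A11 to the membrane, and the other 7 charge tRNAs with alanine (AARS1), cysteine (CARS1), glycine (GARS1), isoleucine (IARS1), methionine (MARS1), asparagine (NARS1) and threonine (TARS1). The matches in AARS1 and CHAC1 lay 187 and 209 bases before the start, and the match in ASNS 68 bases before it. The other matches began between 33 bases before the start and base 38 of the transcript. In TARS1, GARS1, ASNS, CARS1 and SLC3A2 only 1 of the gene's windows held the motif. The windows of ATF4, DDIT3, TRIB3, SLC7A5, PSAT1, PHGDH and MTHFD2 held no match, which says only that these letters are not in those windows. No window was in the table for VARS1, LARS1, YARS1, SLC7A11, SHMT2 and PSPH. For synthetases with a match and for those with a window and no match, the median log2 fold changes against Vehicle under TGF-β were 0.11 (7 genes) and 0.07 (7 genes), under IL-4+IL-13 0.07 and 0.04, and under IL-6 0.09 and 0.10. Over all members the genes with a match had the lower median under each treatment, with TGF-β medians of 0.12 for the 10 genes with a match and 0.19 for the 16 with a window and no match. The same medians for IL-4+IL-13 were 0.07 and 0.13, and for IL-6 0.09 and 0.16.

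Libraries of 1 batch mostly resembled one another, but the Vehicle libraries of batches 2 and 4 did not, and this bears on every comparison with Vehicle. Correlations of deviations from group means over 15260 genes had a median of 0.74 for pairs within a batch and -0.19 between batches. The Vehicle library of batch 2 correlated between -0.06 and 0.06 with the 3 treated libraries of its own batch, but between 0.52 and 0.65 with those of batch 4 and between 0.53 and 0.61 with those of batch 3. The Vehicle library of batch 4 mirrored it: it correlated between -0.06 and 0.42 with the treated libraries of its own batch and between 0.47 and 0.57 with those of batch 2. In the other 4 batches Vehicle correlated best, on average, with its own treated libraries, with a lowest mean of 0.43 in batch 5. On this measure both libraries go against their batch labels. The labels were kept. Whether a label is wrong was not tested, and if one were, the ratios of batches 2 and 4 would be against another culture's Vehicle. The 3 comparisons with Vehicle share these libraries, so they are not independent of each other. Results that rest on them are given with and without one or both.

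In batch 2 the serine route stood above every Vehicle library in all 3 treated libraries at once. PHGDH, the first enzyme of serine synthesis, was at 60.1 CPM (counts scaled to library size, normalised by the TMM method) in Vehicle and at 218, 223 and 249 CPM in the TGF-β, the IL-4+IL-13 and the IL-6 library. PSAT1, the transaminase that follows it, was at 69.6 CPM in Vehicle and at 307, 332 and 355 CPM in the same treated libraries. PSPH, the phosphatase that releases serine, was at 19.8 CPM in Vehicle against 43.6, 44.9 and 50.2 CPM. The Vehicle library of batch 4 read 62.1, 71.5 and 21.3 CPM for the 3 genes, close to that of batch 2, so here the treated libraries of batch 2 stood apart from either Vehicle library.

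SHMT2, the mitochondrial enzyme that splits serine into glycine and a one-carbon unit, read 90.7 CPM in that Vehicle library and 321, 308 and 394 CPM in the TGF-β, the IL-4+IL-13 and the IL-6 library of batch 2. SLC7A11, the cystine transporter chain, read 16.8 CPM in Vehicle and 63.3, 64.3 and 59.8 CPM after treatment. QARS1, which loads glutamine onto tRNA, read 95.7 CPM in Vehicle against 170, 181 and 209 CPM. Its 3 treated libraries were not all above every Vehicle library, and its Vehicle levels spanned 2.18 times. SARS1, which loads serine onto tRNA, read 201 CPM in Vehicle and between 311 and 391 CPM after treatment.

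**Figure D1:**
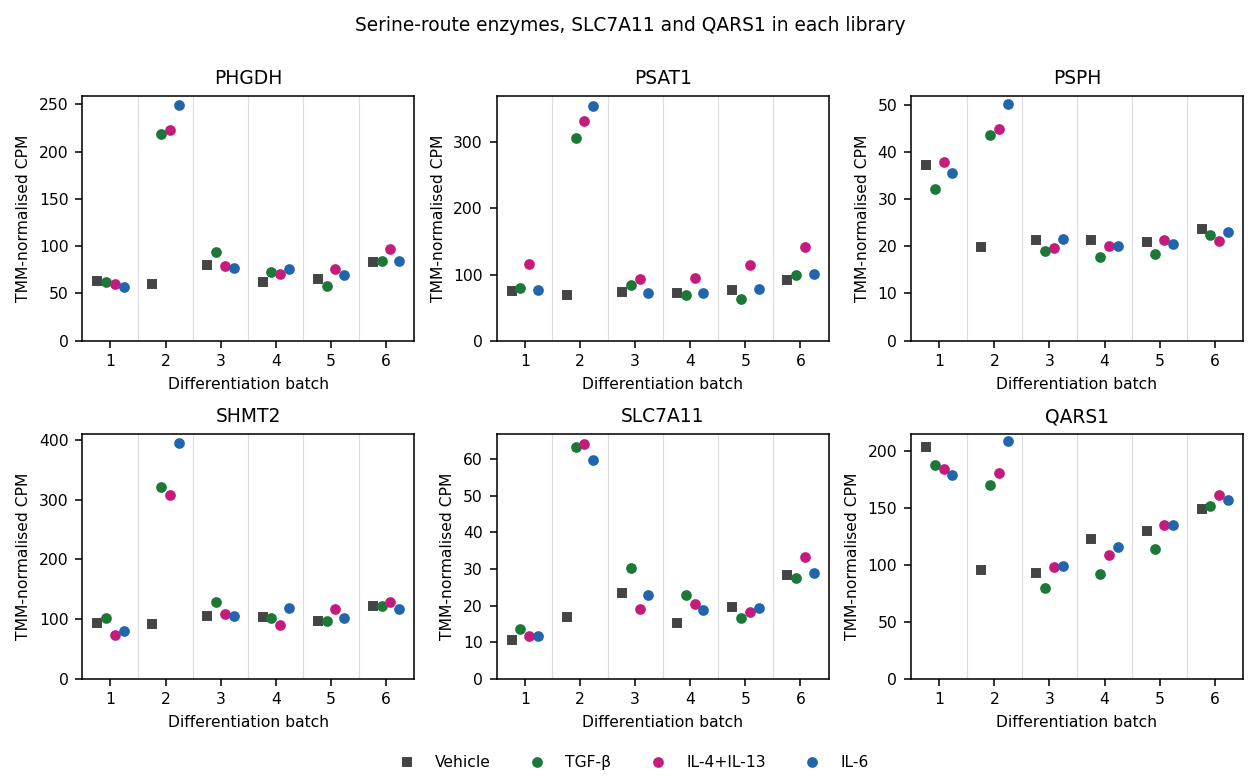
TMM-normalised CPM (linear axes from 0) of PHGDH, PSAT1, PSPH, SHMT2, SLC7A11 and QARS1 in each of the 24 libraries, by differentiation batch, with Vehicle as squares and the 3 treatments as coloured circles. In batch 2 the 3 treated points lie far above the Vehicle square, for PHGDH at 218 to 249 CPM against 60.1 CPM, while in the other batches the 4 points of a batch mostly lie close together.

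Counted over all members, 29 of 32 were higher than Vehicle in all 3 treated libraries of batch 2, where 32.2% of all genes tested were. 6 members were more than doubled in all 3, against 4.55% of all genes: PHGDH, PSAT1, PSPH, SHMT2, SLC7A11 and IARS1, the isoleucine synthetase. For IARS1 this is the first of its 2 entries, which held 73253 of the symbol's 180603 counts. HARS1, the histidine synthetase, was lower in all 3, as were 37.3% of all genes. Batch 4 leaned the same way with smaller sizes, with 23 members higher in all 3 libraries (25% of all genes), among them all 6 regulators and all 3 transporter chains. In batch 1 the lean was the opposite: 15 members were lower in all 3 treated libraries (27.3% of all genes) and 6 were higher (20.9%), and 11 of the 17 synthetases were among the lower ones. In batches 3, 5 and 6 the counts higher in all 3 were 6, 11 and 13 (20.5%, 16.4% and 20.7% of all genes). The 3 treated libraries of a batch share 1 Vehicle library, so these counts describe batches and are not replicate evidence of a treatment. A count that does not depend on which Vehicle library belongs to a batch gave another picture of batch 4. In batch 2, 18 members had all 3 treated libraries above all 6 Vehicle libraries (12.3% of all genes), in batch 4 none did (0.834%), in batch 6 there were 7 (2.38%), and in batches 1, 3 and 5 there were none (2.85%, 2.41% and 0.783%).

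**Figure D2:**
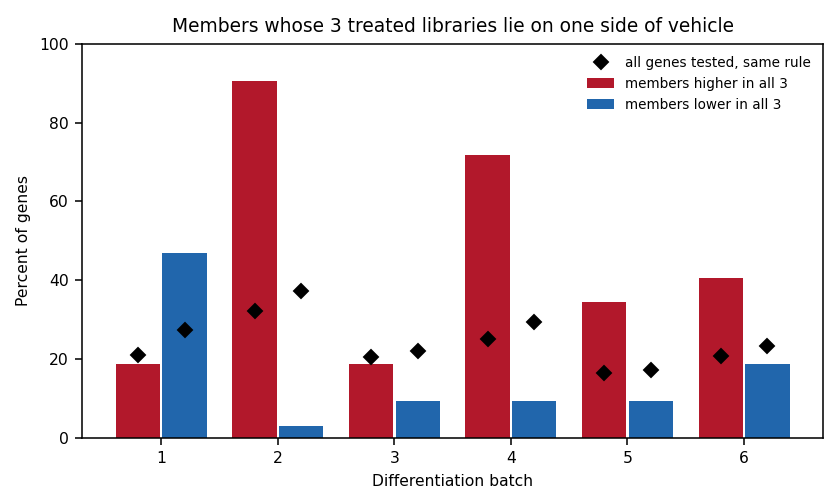
Percent of the 32 members that were higher (red) or lower (blue) than the Vehicle library of the batch in all 3 treated libraries, with diamonds for the share of all 29377 genes tested. Batch 2, with 29 members higher, and batch 4, with 23, lie far above their diamonds, and batch 1 holds more members lower (15) than higher (6).

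Markers of other cell types moved with the same libraries. In batch 2 the summed CPM of 6 dividing-cell genes (MKI67, TOP2A, CCNB1, CDK1, BIRC5 and AURKB) was 2.49, 2.95 and 2.75 higher on the log2 scale than in Vehicle in the TGF-β, the IL-4+IL-13 and the IL-6 library. The summed CPM of 11 neuronal genes was lower by 0.80, 0.70 and 0.69 on that scale, and that of 9 fibroblast and smooth muscle genes by 0.73, 1.10 and 1.07. Over all libraries the dividing-cell sum ranged from 17.8 to 132 CPM in Vehicle, 33.9 to 352 CPM after TGF-β, 39.9 to 487 CPM after IL-4+IL-13 and 42.9 to 422 CPM after IL-6. In batch 4, where members also leaned upward against the Vehicle library of the batch, the same sum was lower than Vehicle by 1.24, 1.29 and 0.33 on the log2 scale. The marker ratios of batches 2 and 4 are against the 2 Vehicle libraries that go against their batch labels, so they carry the same limit as the members' ratios. Of 4 pluripotency genes, NANOG was at 0 in 20 libraries with 11 counts in all, and POU5F1 had 51 counts over its 7 entries, with at most 7 in a library. LIN28A and DPPA4 were read in every library, and the sum over the 3 tested genes, in which POU5F1 was left out, was 1.58, 1.47 and 1.55 higher than Vehicle on the log2 scale in batch 2. The median of the 3 genes' own log2 ratios in batch 2 was 0 under each treatment, so the genes did not rise as a set. DPPA4 held most of the counts in that sum (17102, against 1655 for LIN28A). The sum of 7 Schwann and satellite glia genes was higher after TGF-β in 6 of 6 batches, by 0.10 to 0.95, and highest in batch 2. The part of cell composition in the members' values was not tested.

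**Figure D3:**
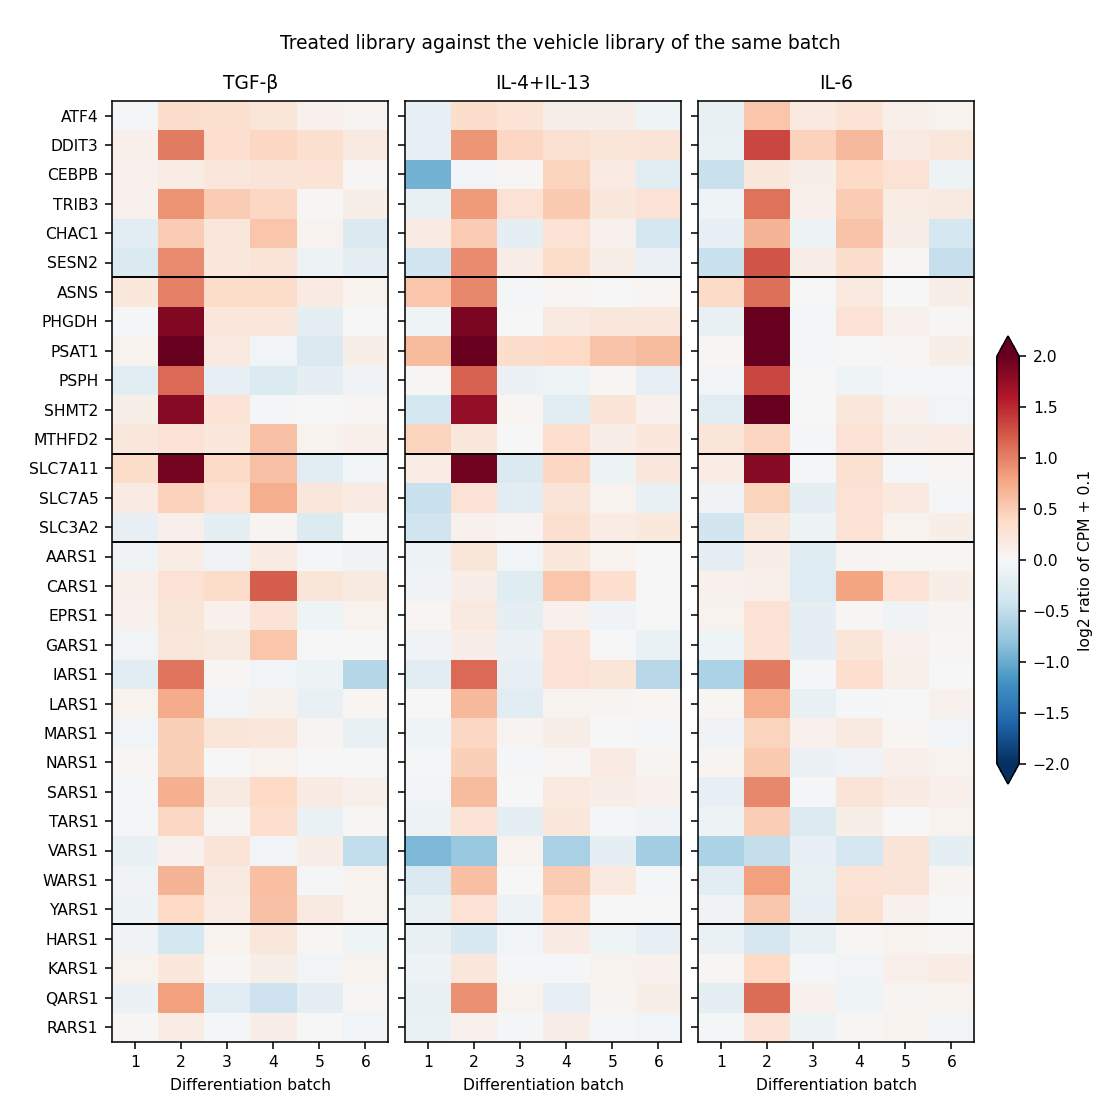
Heat map of the log2 ratio of CPM + 0.1 between each treated library and the Vehicle library of its batch, for the 32 members (rows, by role, lines between roles) and batches 1 to 6 (columns) under each treatment, with the colour scale ending at -2 and 2. Batch 2 is the column with the strongest red in all 3 panels, and PSAT1 is red in all 6 batches under IL-4+IL-13.

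TGF-β was compared with Vehicle first. Most members had a positive log2 fold change after TGF-β (27 of 32), but none passed the test, an edgeR quasi-likelihood fit with batch as a term and Benjamini-Hochberg adjustment over 29377 genes, which called 0.347% of all genes. The median over the members was 0.14, against -0.01 over all genes. At an unadjusted p under 0.05, 10 members were higher and 0 lower, where 2.42% of all genes were higher and 4.87% lower. DESeq2 called 1 member, SLC7A5, where it called 1.72% of all genes. Without the Vehicle library of batch 2 that call was lost (DESeq2 adjusted p = 0.0607) and PSPH was called instead, lower at -0.17 (DESeq2 adjusted p = 0.0404), where 2.38% of all genes were called. Without batch 2 the median was 0.06, with 24 positive and 8 negative members, and at that unadjusted p 8 members were higher and 2 lower (4.36% and 6.15% of all genes). Without the Vehicle libraries of batches 2 and 4 the median was 0.04, with 5 members higher and 2 lower (3.55% and 5.16%).

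SLC7A5, the light chain of the large neutral amino acid transporter (chromosome 16, 87830023 to 87869507 on GRCh38.p14), ranged from 120 to 267 CPM with a median of 179 in Vehicle and from 134 to 324 CPM with a median of 246 after TGF-β. The groups overlapped across batches, but within every batch the TGF-β library was the highest of the 4, which held for 0.272% of all genes. The log2 fold change was 0.33 ± 0.09 (SE, 6 batches, edgeR adjusted p = 0.124, DESeq2 adjusted p = 0.0213). It was 0.30 without batch 2 and 0.21 without the Vehicle libraries of batches 2 and 4, where neither edgeR nor DESeq2 called it (adjusted p = 0.385 and 0.264). SLC3A2, its partner chain in the transporter, had a log2 fold change of -0.08 ± 0.08 and was higher in 3 batches and lower in 3.

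CARS1 had the next smallest p, with Vehicle at 44.1 to 104 CPM and TGF-β at 47.3 to 135 CPM. It was higher in 6 of 6 batches at 0.39 ± 0.11 on the log2 scale (edgeR adjusted p = 0.206), with batch 4 at 1.21 and the other batches between 0.10 and 0.37. Without the Vehicle library of batch 4 it was 0.28. The counts of this symbol were split over 2 entries. With both summed the value fell to 0.21 ± 0.07 (edgeR adjusted p = 0.321).

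MTHFD2, a mitochondrial one-carbon enzyme (chromosome 2, 74198615 to 74217565), was also higher in 6 of 6 batches after TGF-β, at 0.25 ± 0.07 on the log2 scale (edgeR adjusted p = 0.209). Its libraries spanned 85.8 to 268 CPM in Vehicle and 99.9 to 294 CPM after TGF-β, so the range between batches was wider than the difference within them. Higher in 6 of 6 batches were 7 members in all (1.61% of all genes): SLC7A5, CARS1, MTHFD2, DDIT3, TRIB3, CEBPB and ASNS.

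ATF4 itself (chromosome 22, 39520559 to 39522686) read between 289 and 382 CPM with a median of 322 in Vehicle, and between 300.0 and 486 CPM with a median of 360 after TGF-β. The libraries overlapped, 5 of 6 batches were higher, and the log2 fold change was 0.16 ± 0.07 (95% interval 0.01 to 0.31, edgeR adjusted p = 0.60). DDIT3, the stress-induced factor CHOP, was at 20.9 to 41.2 CPM in Vehicle and 22.4 to 48.7 CPM after TGF-β, and its log2 fold change was 0.38 ± 0.12 (edgeR adjusted p = 0.285). It was 0.26 without batch 2. TRIB3, a pseudokinase that restrains the response, gave 0.33 ± 0.11 with all batches and 0.23 without batch 2.

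By role, the TGF-β medians on the log2 scale were 0.16 for the regulators, 0.27 for the synthesis enzymes, 0.12 for the ATF4-linked synthetases and 0.00 for the 4 other synthetases. The synthesis enzymes split once batch 2 was left out: ASNS stayed at 0.23 and MTHFD2 at 0.23, while PHGDH, PSAT1 and SHMT2 were at 0.05, 0.01 and 0.08 and PSPH at -0.18. None of these passed the test. Among the synthetases, CARS1, SARS1 and YARS1 had an unadjusted p under 0.05, with log2 fold changes of 0.39, 0.24 and 0.21.

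**Figure D4:**
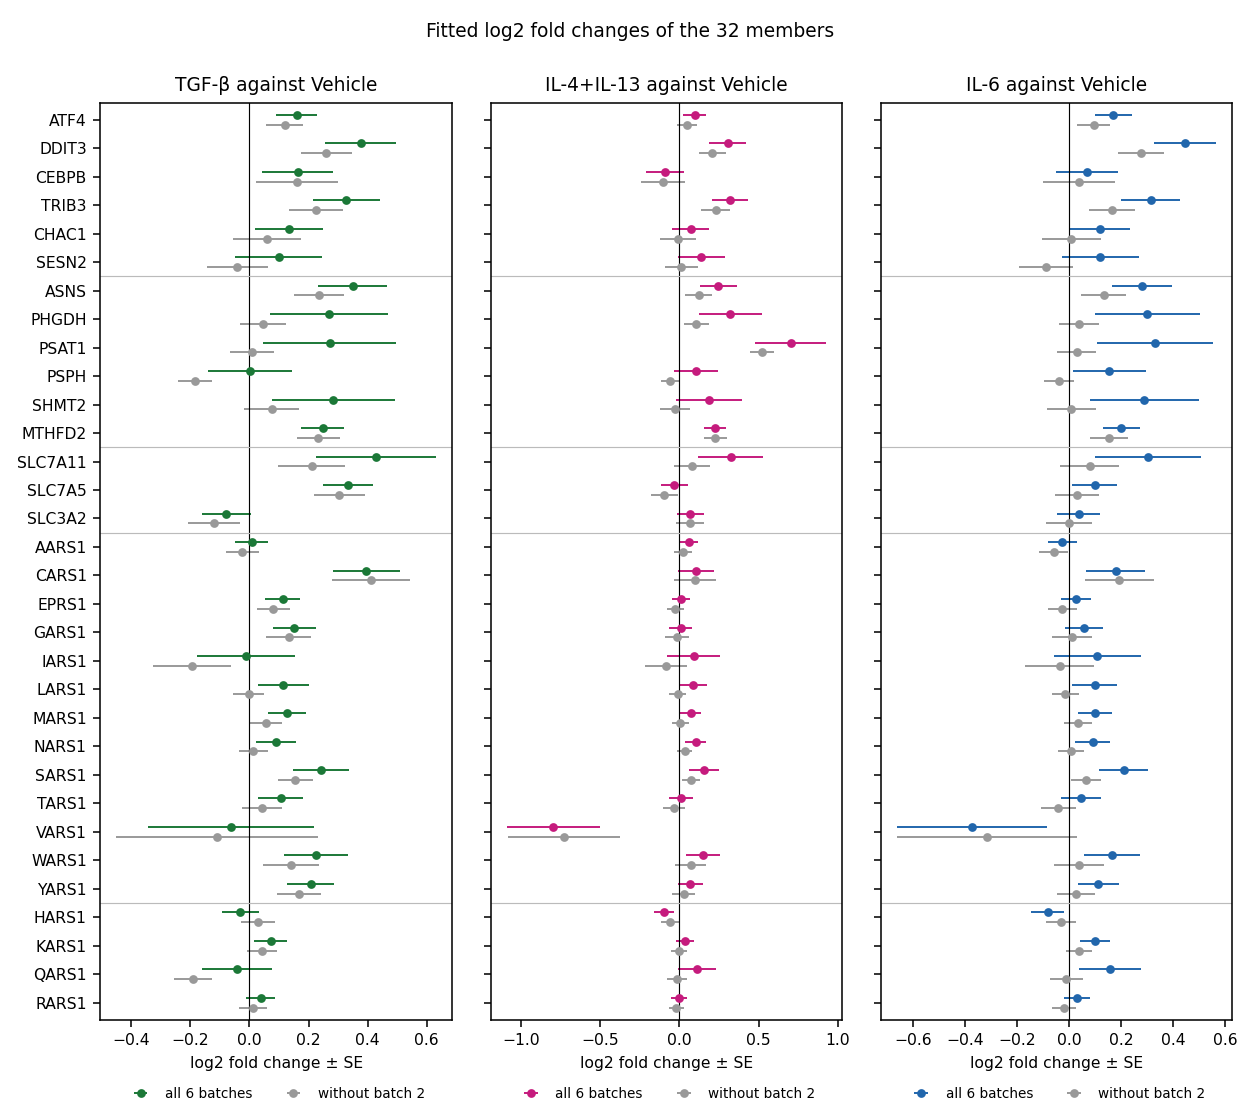
Fitted log2 fold change ± SE (edgeR, batch as a term) of each member against Vehicle, in 1 panel per treatment, with all 6 batches in colour and without batch 2 in grey, on an x axis of its own for each panel. Leaving out batch 2 moves PHGDH, SHMT2 and SLC7A11 toward 0 and narrows their errors in all 3 panels, while SLC7A5 under TGF-β goes from 0.33 to 0.30 and PSAT1 under IL-4+IL-13 from 0.70 to 0.52.

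IL-4+IL-13 gave clear responses elsewhere in the same libraries: ALOX15, a lipoxygenase induced by these cytokines, was 10.6 higher on the log2 scale and CISH, a feedback inhibitor of STAT signalling, 4.40 higher, both in 6 of 6 batches. Among the 32 members, none passed the edgeR test, which called 0.633% of all genes, and DESeq2 called none of them and 1.95% of all genes. 5 were higher and 1 lower at an unadjusted p under 0.05 (4.42% and 4.68% of all genes), and the median log2 fold change was 0.09. Without batch 2 that median was 0.01, with 17 members positive and 15 negative, and without the Vehicle libraries of batches 2 and 4 it was -0.03, with 12 positive and 20 negative.

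PSAT1 (chromosome 9, 78297125 to 78330093) had the largest log2 fold change of the members under IL-4+IL-13. It lay between 69.6 and 92.3 CPM with a median of 74.1 in Vehicle, and between 93.3 and 332 CPM with a median of 116 after IL-4+IL-13. The within-batch log2 ratios were 0.64, 2.25, 0.34, 0.40, 0.58 and 0.63 in batches 1 to 6. With all batches the log2 fold change of 0.70 ± 0.22 did not pass the test (edgeR adjusted p = 0.26). Without batch 2 it was 0.52 ± 0.07 and passed (edgeR adjusted p = 0.0014, with 0.809% of all genes called), and without the Vehicle library of batch 2 alone it was 0.47 (edgeR adjusted p = 0.00927, with 0.765% of all genes called). Without the Vehicle libraries of both batches 2 and 4 it was 0.49 (edgeR adjusted p = 0.0213, with 0.776% called). Without batch 1 and the Vehicle library of batch 2 it was 0.42 and did not pass (edgeR adjusted p = 0.0777).

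The IL-4+IL-13 library had the highest PSAT1 level of the 4 in 5 of 6 batches, which held for 2.05% of all genes, and IL-6 was highest in batch 2. Of the enzymes on either side of PSAT1 in serine synthesis, PHGDH was at 0.11 ± 0.08 and PSPH at -0.06 ± 0.06 on the log2 scale without batch 2. Neither passed the test, and their difference from PSAT1 was not tested. MTHFD2 was higher in 6 of 6 batches at 0.23 ± 0.07 (edgeR adjusted p = 0.252). These 2 genes were the members higher in every batch under IL-4+IL-13 (2.28% of all genes).

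TRIB3 had the next smallest p under IL-4+IL-13, at 0.32 ± 0.11 on the log2 scale with 5 of 6 batches higher (edgeR adjusted p = 0.34). ATF4 was at 0.10 ± 0.07 (95% interval -0.05 to 0.24, edgeR adjusted p = 0.722), with libraries between 271 and 487 CPM. SLC7A5 was at -0.03 ± 0.09 and had 3 batches higher and 3 lower. The 13 ATF4-linked synthetases lay between -0.80 and 0.15 on the log2 scale with a median of 0.07. The low end was VARS1, whose first entry held 3 to 11 counts per library. Its counts were split over 7 entries, but these together held only 1230 counts over all 24 libraries, 175 of them in the first.

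IL-6 against Vehicle gave no call over all genes by edgeR (0% of genes, with 2.32% higher and 2.44% lower at an unadjusted p under 0.05), while DESeq2 called 0.449% of genes and no member. SOCS3, a feedback gene of IL-6 signalling, was at 0.09 ± 0.09 on the log2 scale and did not pass the test. Of the members 29 were positive, 6 were higher and 0 lower at an unadjusted p under 0.05, and none was higher in 6 of 6 batches (1.22% of all genes). The median was 0.12. It was 0.02 without batch 2 and -0.01 without the Vehicle libraries of batches 2 and 4.

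DDIT3 had the smallest p under IL-6, with libraries at 19.1 to 60.3 CPM against 20.9 to 41.2 CPM in Vehicle and a log2 fold change of 0.44 ± 0.12 (edgeR adjusted p = 0.85). Without batch 2 this was 0.28 ± 0.09. MTHFD2 and TRIB3 followed at 0.20 ± 0.07 and 0.31 ± 0.11, each higher in 5 of 6 batches and lower in the remaining one. ATF4 was at 0.17 ± 0.07 with libraries between 287 and 559 CPM, the highest being that of batch 2. The synthesis enzymes PHGDH, PSAT1 and SHMT2 were at 0.30, 0.33 and 0.29 with all batches and at 0.04, 0.03 and 0.01 without batch 2.

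The treatments were then compared with each other. The Vehicle libraries enter these tests through the batch terms and through the estimate of the spread, which all 24 libraries share. Without the Vehicle library of batch 2, the genes called for TGF-β against IL-4+IL-13 went from 2.98% to 4.93% of all genes. TGF-β against IL-4+IL-13 gave 1 called member, SLC7A5, where 2.98% of all genes were called. SLC7A5 was at 88.3 to 256 CPM with a median of 187 after IL-4+IL-13, against 134 to 324 CPM after TGF-β, and was higher after TGF-β in 6 of 6 batches (log2 fold change 0.37 ± 0.09, edgeR adjusted p = 0.021). The call was lost on leaving out any of batches 1, 3, 4, 5 or 6, with edgeR adjusted p between 0.0517 and 0.11, and was kept without batch 2 (0.40, edgeR adjusted p = 0.00983) and without the Vehicle libraries of batches 2 and 4 (0.37, edgeR adjusted p = 0.00219, with 5.75% of all genes called). Without the batch term it was lost as well (edgeR adjusted p = 1).

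PSAT1 went the other way in the same comparison, lower after TGF-β in 6 of 6 batches at -0.43 on the log2 scale. It passed without batch 2, at -0.51 ± 0.07 (edgeR adjusted p = 0.000569), where 4.92% of all genes were called. PSAT1 was also higher after IL-4+IL-13 than after IL-6 once batch 2 was left out, at 0.49 ± 0.07 (edgeR adjusted p = 0.0022), where 0.785% of all genes were called, but it did not pass without batch 1 and the Vehicle library of batch 2 (0.34, edgeR adjusted p = 0.171). TGF-β against IL-6 and IL-4+IL-13 against IL-6 called none of the members with all batches (0.0783% and 0.456% of all genes). DESeq2 called none either (1.7% and 1.35% of all genes). At an unadjusted edgeR p under 0.05, 1 member was higher after TGF-β than after IL-6 and 0 lower (2.99% and 4.51% of all genes). Between IL-4+IL-13 and IL-6, 0 members were higher and 0 lower (2.47% and 2.1%). SLC7A5 was higher after TGF-β than after IL-6 in 6 of 6 batches at 0.24 ± 0.09 (edgeR adjusted p = 0.451).

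The members also differed between batches before any treatment. Over the 6 Vehicle libraries the highest level of a member was 1.17 to 4.29 times its lowest, with a median of 1.48, where the median over genes with a mean count of at least 100 was 1.77. CEBPB, a partner of ATF4, spanned 4.29 times, CHAC1 3.18, MTHFD2 3.12 and ASNS 3.06 times, and batch 1 held one end in each of them. ATF4 spanned 1.32 times, and KARS1, the lysine synthetase, 1.17 times. ATF4-linked synthetases spanned a median of 1.46 times.

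Neighbouring lists were examined for context, and they too were chosen with earlier results of these data known. Of 26 other ATF4 and stress-response genes, 9 were higher and 0 lower at an unadjusted p under 0.05 after TGF-β (2.42% and 4.87% of all genes), with a median log2 fold change of 0.17. Without the Vehicle libraries of batches 2 and 4 these were 4, 1 and 0.07. DESeq2 called 1 of them (1.72% of all genes), ALDH1L2, a mitochondrial folate enzyme, at 0.39 (DESeq2 adjusted p = 0.00385, edgeR adjusted p = 0.0636), higher in 6 of 6 batches. Of 12 chaperones and unfolded-protein genes of the endoplasmic reticulum, 10 were higher at that p (2.42% of all genes) and 8 were higher in 6 of 6 batches (1.61%). Without the same pair of Vehicle libraries 2 were higher at that p. Their median was 0.32 after TGF-β, 0.15 after IL-4+IL-13 and 0.26 after IL-6, or 0.15, 0.01 and 0.09 without that pair, and DESeq2 called HSP90B1 after TGF-β (0.40, DESeq2 adjusted p = 0.0478). The median of the chaperones in batch 2 alone was 1.04 after TGF-β.

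The lists nearest to the synthetases showed less. Of 17 mitochondrial synthetases and 6 other genes of the cytosolic synthetases and their complex, none had an unadjusted p under 0.05 after TGF-β, and the same held for 13 eIF2α kinases and translation control genes. Their medians were -0.03, 0.00 and 0.00 on the log2 scale. After IL-4+IL-13, SLC38A2, an ATF4-linked transporter of small neutral amino acids, was lower in 6 of 6 batches at -0.26 (DESeq2 adjusted p = 0.0145, edgeR adjusted p = 0.117). Of the 26 ATF4 genes, 2 were higher and 1 lower at an unadjusted p under 0.05 after IL-4+IL-13 (4.42% and 4.68% of all genes), and likewise 2 and 1 after IL-6 (2.32% and 2.44%). Of the 12 chaperones, 1 and 5 were higher at that p. With all libraries the edgeR test called no gene of these lists against Vehicle, at the background of 0.347%, 0.633% and 0% given above.

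Some reads could not be assigned to 1 gene with certainty. Whether the counting used strand is not given in the sources used here. MTHFD2 overlaps SLC4A5 by 1324 bases, where SLC4A5 held 103091 counts over the 24 libraries. YARS1 overlaps S100PBP by 797 bases (43295 counts) and MARS1 overlaps ARHGAP9 by 757 bases (828 counts). DDIT3 and MARS1 overlap by 65 bases on chromosome 12, and antisense genes overlap CEBPB, SLC7A11, SLC7A5 and CARS1. Processed or unprocessed pseudogenes of ATF4, ASNS, PSAT1, MTHFD2 and SLC7A5 are annotated as well. SESN2, CARS1 and IARS1 were each split over 2 entries. With entries summed, the TGF-β log2 fold changes were 0.12 for SESN2 and 0.18 for IARS1, against 0.10 and -0.01 for the first entry alone.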

How the data were processed

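RNA of 24 cultures was sequenced after poly(A) selection. The authors deposited raw counts per gene entry, made with Trimmomatic 0.30 and the GRCh38.p14 genome per the labels and the study's methods. The aligner, the counting tool and strandedness are not given in the sources used here. All 24 columns were used, and samples were grouped by the treatment and batch labels.

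Counts of the 29377 entries with a total of at least 10 were fitted with edgeR 4.0.16 (R 4.3.3; quasi-likelihood, robust, TMM) on batch + treatment over all libraries, with Benjamini-Hochberg adjustment over all entries. Calls are adjusted p-values under 0.05, and SE is the log2 fold change over the root of F. DESeq2 1.42.0, the study's tool, was an alternative, as were other filters and scalings, the groups compared alone, no batch term, each batch left out, the Vehicle library of batch 2 left out, and, added after seeing the data, entries of a symbol summed and the Vehicle libraries of batches 2 and 4, or batch 1, left out in other combinations. Within-batch ratios used log2(CPM + 0.1). Batches pair the libraries: the label marks a shared differentiation, and deviations within a batch correlated at a median of 0.74 (36 pairs, lowest -0.06).

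Statistics are given for called members, for ATF4 and for the 3 members with the smallest p against Vehicle, and other members by counts, ranges and role. Members and lists were chosen with earlier results of these data known. The edgeR and DESeq2 steps were tested on simulated data. Every simulated library followed the mean of its own batch, so these tests do not cover Vehicle libraries that depart from their batch. Reads were not de-duplicated by molecular identifiers as far as the sources state, and 33342682 to 39817784 counts per library left members, VARS1 apart, at 372 counts or more in every library. Promoter windows and coordinates come from RefSeq (GRCh38.p14), and 26 of 32 members matched a window.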

Additional observations from a re-analysis of the deposited data

Results flagged for a closer look

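In 29 of 96 sets of 6 within-batch log2 ratios against Vehicle (30.2%), 1 batch stood apart from the other 5 beyond Dixon's limit, which chance passes in about 5% of sets. Batch 2 was that batch in 27 of them, all with a higher ratio, and the sets share 1 Vehicle library per batch, so they are not independent. No explanation was tested.

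After TGF-β the batch 2 ratios that stood apart were PSAT1 2.14, PHGDH 1.86, SHMT2 1.82, PSPH 1.13, IARS1 1.07 (first of its 2 entries), DDIT3 1.03, ASNS 1.01, QARS1 0.83, LARS1 0.75 and NARS1 0.48. After IL-4+IL-13 they were PSAT1 2.25, SLC7A11 1.93, PHGDH 1.89, SHMT2 1.76, PSPH 1.18, QARS1 0.92, LARS1 0.66 and SARS1 0.63. After IL-6 they were PSAT1 2.35, SHMT2 2.12, PHGDH 2.05, SLC7A11 1.83, PSPH 1.34, QARS1 1.12, ASNS 1.09, LARS1 0.73 and NARS1 0.52.

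The remaining 2 were CARS1 after TGF-β in batch 4, at 1.21 where the other batches lay between 0.10 and 0.37 (0.28 over all batches without the Vehicle library of batch 4), and SLC3A2 after IL-4+IL-13 in batch 1, at -0.40 where the others lay between 0.06 and 0.32. SLC7A5 differed between the treatments themselves, by 0.37 on the log2 scale between TGF-β and IL-4+IL-13 (edgeR adjusted p = 0.021, higher in 6 of 6 batches).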

How the results depend on the processing

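Against Vehicle, edgeR called 0 members under every treatment with all libraries. DESeq2 called 1 for TGF-β (SLC7A5, with 1.72% of all genes called). Without the Vehicle library of batch 2 it called 1 (PSPH, lower, with SLC7A5 lost, 2.38%), and without those of batches 2 and 4 it called 0 (1.96%). For IL-4+IL-13, leaving out each batch in turn gave 0 to 1 members (0.263% to 0.809% of all genes), the 1 being PSAT1 without batch 2. Leaving out the Vehicle library of batch 2 gave 1 by edgeR and 1 by DESeq2, again PSAT1 (0.765% and 1.99%). Leaving out those of batches 2 and 4 gave the same (0.776% and 2.07%). Leaving out batch 1 and the Vehicle library of batch 2 gave 0 (0.655%). For TGF-β against IL-4+IL-13 the 1 called member became 0 without the replicate block (no batch term, 0.174% of all genes). It became 0 with a log2 fold change beyond 1 required, and 0 to 2 leaving out each batch (1.35% to 4.92%). Without the Vehicle library of batch 2, edgeR and DESeq2 each called 2 (SLC7A5 and PSAT1, where 4.93% and 7.66% of all genes were called). Without batch 1 and that library there were 3 (with SLC3A2, lower, 6.22%). Without the Vehicle libraries of batches 2 and 4 there were 2 by edgeR (5.75%) and 3 by DESeq2 (8.66%, the third being CARS1). For TGF-β against IL-6, DESeq2 called 1 (QARS1, lower) without the Vehicle library of batch 2 (3.03% of all genes). So did edgeR without batch 1 and that library (1.2%). DESeq2 called 2 (QARS1 and SLC7A5) without the Vehicle libraries of batches 2 and 4 (3.99%). For IL-4+IL-13 against IL-6, 0 to 1 were called leaving out each batch (0.228% to 0.785% of all genes). Without the Vehicle library of batch 2, edgeR and DESeq2 each called 1, PSAT1 (0.752% and 1.92%). Without those of batches 2 and 4 both called it as well (0.858% and 2.03%). Without batch 1 and the Vehicle library of batch 2, edgeR called 0 (0.617%). Leaving out the Vehicle library of batch 4 alone changed no count. Removing the replicate block changed no other count of called members, and DESeq2 size factors in edgeR, other filters, the groups compared alone, the first entry of each symbol and summed entries left the edgeR counts as they were. The cause of these changes was not tested.

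For the 13 log2 fold changes with full statistics (4 members against Vehicle under each treatment, among them ATF4, and SLC7A5 between TGF-β and IL-4+IL-13), none changed sign under any alternative run, and 248 of the 260 alternative values kept their side of the threshold. Of all 32 members, 11 changed sign under at least 1 alternative for TGF-β against Vehicle (PSPH and IARS1 among them), 20 for IL-4+IL-13 (SLC7A5 among them) and 18 for IL-6. SLC7A5 against IL-4+IL-13 ranged from 0.32 to 0.42 leaving out each batch, and PSAT1 under IL-4+IL-13 against Vehicle was at 0.52 without batch 2. The members' median under TGF-β was 0.14 with all batches and between 0.06 and 0.19 leaving out each batch, under IL-4+IL-13 0.09 and between 0.01 and 0.14, and under IL-6 0.12 and between 0.02 and 0.18, the lowest of each being without batch 2. With 6 batches and differences of this size, a change that misses the threshold is not shown to be absent.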
